A study of Spongilla lacustris with 18 samples.

Results

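The genes described here belong to the freshwater sponge Spongilla lacustris. Their deposited annotation names a Krüppel-like factor (KLF) or a family with some vertebrate members known for a fast, transient response to stimulation. They were found by a rule on names: a row entered when its annotation held a whole word of 1 of 16 patterns (KLF, EGR, FOS, FOSL, JUN, ATF, CREB, CREM, CEBP, MAF, MYC, NR4A, IER, DUSP, SPRY and SPRED, with ATF6 left out). The rule found 45 genes among 39562, and 44 of them passed the filter on low counts, as did 24125 genes in all. No row was matched for FOS, FOSL, JUN, CREM, NR4A, IER or SPRED, which are 7 of the 16 patterns, so those families are not analysed here. The rows matched for EGR, CEBP, MAF and SPRY only share a word with those families. The names state similarity to vertebrate relatives and not identity.

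Whole juvenile sponges of wild type genotype, kept at 18 °C in M-medium for 9 days, received 37.5 µM tryptamine, an amine made from tryptophan, or 0.03% DMSO, its solvent. The 6 groups of 3 libraries were tryptamine for 1 h and DMSO for 1 h, tryptamine for 4 h and DMSO for 4 h, and tryptamine for 4 h with a washout and 24 h of recovery beside DMSO handled in the same way. Nothing in the labels says whether the 3 libraries of a group came from separate cultures, so the p-values measure the spread between these libraries, which may be technical. PolyA RNA was sequenced, and the values are counts of read pairs per gene.

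Immediate early genes are transcribed within minutes to hours of a signal without new protein being made. In vertebrates, kinases of the ERK, JNK and p38 pathways and cyclic AMP signalling act on factors already present, such as ATF2 and CREB, whose targets include further transcription factors and the dual-specificity phosphatases (DUSPs) that switch the kinases off again. KLFs are zinc finger factors that bind GC-rich DNA, and several are induced by hormones or growth factors. Sponges have no neurons or muscles, and their contractile epithelia, flagellated choanocytes and stem-cell-like archaeocytes share the whole-body RNA measured here.

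By role, the 45 genes held 11 transcription factors, 4 genes named for the coactivator CREBBP, 10 DUSPs and 20 genes that only share a word with the families. The factors were 5 KLFs, 4 ATF or CREB relatives, MYCN and its partner MAX. The 20 others included 10 genes named for SPRYD3, a protein with a SPRY domain that is no Sprouty, 2 for a sponge aggregation factor (MAFp3), and TOE1, matched through its description as a target of EGR1. The match lay in a gene's own symbol for 38 genes and in its description alone for 7. The 20 name matches stay in the counts over all members and are described last.

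Library totals ran from 11379345 to 23769406 counted pairs, with 15798197 the second highest. The scaling factor (TMM, which corrects totals for composition) ran from 0.854 to 1.09, with its lowest value in library number 2 of tryptamine at 4 h. That library also deviated most from its group mean, with an SD over genes of 0.416 on the log2 scale against 0.280 in the least deviating library. Relatives of archaeocyte (12 genes), choanocyte flagellum (47) and contractile pinacocyte genes (11) were all tested except 1 flagellum gene, which had no count in any library. In such bulk RNA, fewer cells of a type and less RNA per cell cannot be told apart, which holds for every level below.

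Per length, the highest mean levels over the 18 libraries were those of DUSP6 c96889-g1 (325 RPKM, the library-scaled count divided by gene length), KLF5 c96134-g1 (227 RPKM) and KLF7 c97409-g2 (195 RPKM). The 2 genes named KLF9 averaged 64.7 RPKM (c102282-g1) and 28.3 RPKM (c77535-g1), and KLF10,KLF11 c99906-g1 averaged 51.2 RPKM. MAX c104238-g1 and MYCN c100226-g1 stood close together at 59.0 and 58.1 RPKM, ATF2 c101810-g1 had 38.3 RPKM, and CREBZF c97433-g1 had the lowest mean level of the 11 factors at 1.45 RPKM. The deposited length sums the isoforms of a gene, which lowers the per-length level of genes with many isoforms. Pairs mapping to several places were not counted, so stretches shared by isoforms of 1 gene may also lack counts. KLF9 c102282-g1 had 2 isoforms and DUSP11 c103494-g1 had 5. The part of this in their levels was not tested. All other levels are CPM, counts scaled by library total and TMM factor, and serve for comparison between groups and not between genes.

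The KLF9 relative c102282-g1 was the 1 member higher with tryptamine at 4 h. In mammals KLF9 is a transcriptional repressor or activator known as a direct target of glucocorticoid and thyroid hormone receptors. At 4 h it measured 195, 186 and 173 CPM with tryptamine, against 118, 80.9 and 90.1 CPM with DMSO. The groups did not overlap, and the lowest tryptamine library stood well above the highest DMSO library. The log2 difference was 0.94 (SE 0.16, 95% interval 0.60 to 1.28, edgeR adjusted p = 0.00279), a fold of 1.92.

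The same gene lay above DMSO at the other times without passing the test. After 1 h it had 272, 187 and 203 CPM with tryptamine and 179, 142 and 176 CPM with DMSO, a difference of 0.41 (SE 0.16, edgeR adjusted p = 0.738). After recovery it had 276, 225 and 262 CPM with tryptamine and 183, 202 and 179 CPM with DMSO, a difference of 0.44 (SE 0.16, adjusted p = 0.152). At each of the 3 times all tryptamine libraries were above all DMSO libraries. The change of the effect was 0.52 (SE 0.22) from 1 h to 4 h and -0.50 (SE 0.22) from 4 h to recovery, with edgeR adjusted p of 1 and 0.417. It is therefore not shown that the effect at 4 h differed from that at the other times.

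The DMSO level of this KLF9 gene changed over time as well. It was 96.2 ± 19.2 CPM at 4 h in DMSO, against 166 ± 20.7 CPM at 1 h (SD, n = 3), a difference of -0.78 (SE 0.16, edgeR adjusted p = 0.00627). After recovery DMSO sponges had 188 ± 12.1 CPM, which was higher than at 4 h by 0.96 (SE 0.16, adjusted p = 0.00119). With tryptamine the means were 221 ± 45.1 CPM at 1 h, 185 ± 11.3 CPM at 4 h and 255 ± 26.6 CPM after recovery. Tryptamine differed by -0.26 at 4 h against 1 h (adjusted p = 0.554) and by 0.46 after recovery against 4 h (adjusted p = 0.0979; 0.0332 with the replicate number as a block). The 4 h DMSO libraries enter the tryptamine comparison at 4 h and both DMSO comparisons over time, so these 3 values are not independent of each other.

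The KLF9 call at 4 h was kept in 15 of 16 alternative settings and lost without both 4 h libraries of number 2. The difference was then 0.83, with an edgeR adjusted p of 0.0641. Genes called in all fell from 363 to 98 in that setting. Leaving out any single library gave 0.82 to 1.11, with edgeR adjusted p of at most 0.0239. The DMSO difference of 4 h from 1 h was -0.67 without the same libraries, with an adjusted p of 0.0519.

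**Figure D1:**
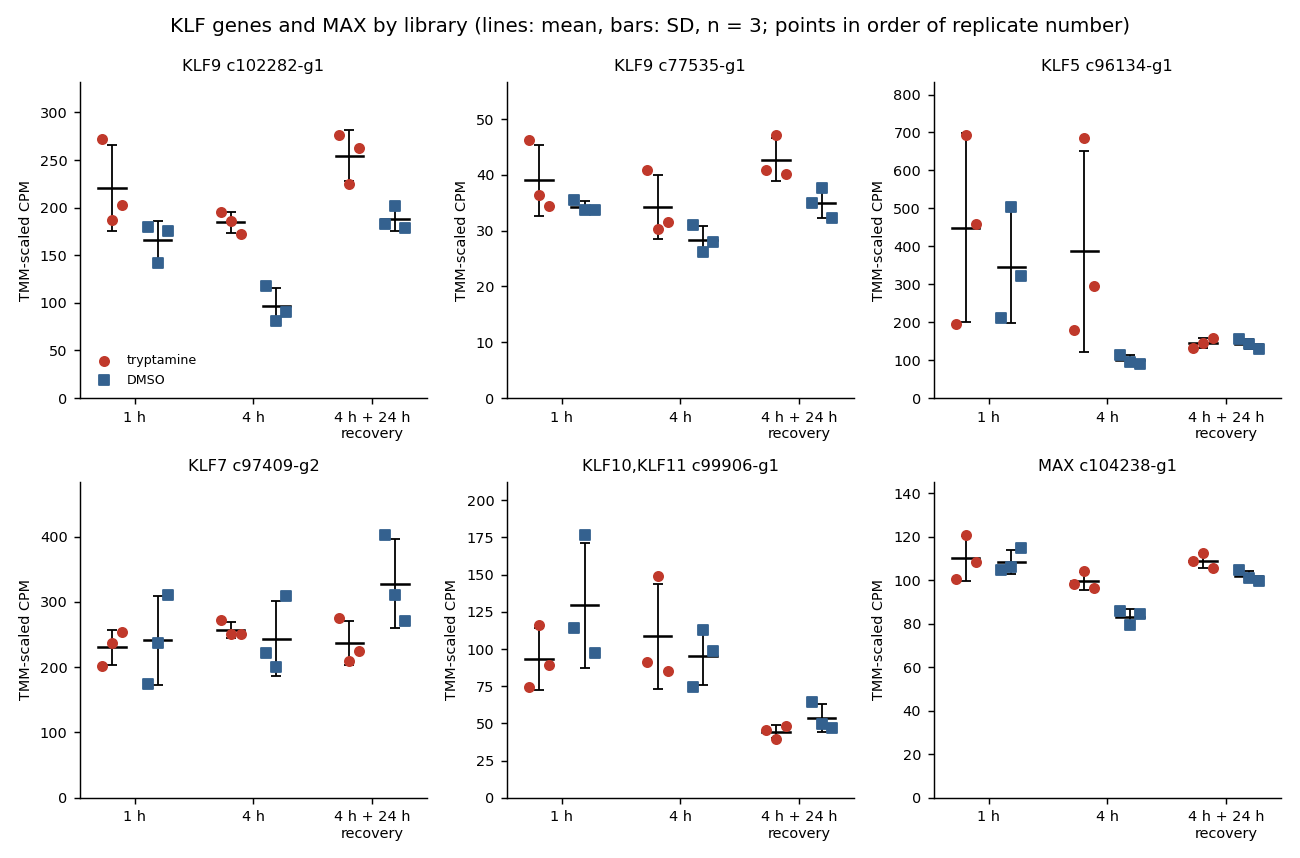
Levels of the 5 KLF genes and MAX in the 18 libraries, in TMM-scaled CPM on linear axes starting at 0, with tryptamine (circles) left of DMSO (squares) at each time; lines are means and bars SDs of 3 libraries. KLF9 c102282-g1 with tryptamine lies above DMSO at every time and its DMSO level is lowest at 4 h, and KLF5 c96134-g1 reaches 685 CPM in 1 tryptamine library at 4 h while its DMSO libraries lie between 90.7 and 114 CPM.

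KLF5 c96134-g1 had the largest difference of any member at 4 h but did not pass the test. KLF5 promotes proliferation of epithelial cells in mammals. It measured 179, 685 and 297 CPM with tryptamine for 4 h, against 114, 96.2 and 90.7 CPM with DMSO. All tryptamine libraries were above all DMSO libraries, and number 2 was far above the other tryptamine libraries. The difference was 1.95 (SE 0.49, 95% interval 0.90 to 3.00, edgeR adjusted p = 0.0743), and without tryptamine library number 2 it was 1.25 (adjusted p = 0.262). It passed with DESeq2 (adjusted p = 0.000305), with a stricter filter on low counts (0.0435) and with non-robust dispersions (0.0241).

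At 1 h KLF5 had 195, 693 and 459.9 CPM with tryptamine and 211, 504 and 321 CPM with DMSO. Its order over the numbers was the same in both groups, number 2 highest and number 1 lowest, and the difference was 0.38 (SE 0.47, adjusted p = 0.906). Within numbers the tryptamine level was 0.925-fold, 1.38-fold and 1.44-fold that of DMSO at 1 h, and 1.58-fold, 7.11-fold and 3.27-fold at 4 h, for numbers 1, 2 and 3. After recovery both groups were low and close, 131 to 159 CPM with tryptamine and 129 to 155 CPM with DMSO. In DMSO alone KLF5 was at 100.2 ± 12.0 CPM at 4 h against 345 ± 148 CPM at 1 h, a difference of -1.79 (SE 0.49, edgeR adjusted p = 0.0609). With the replicate number as a block this was -1.65 and passed (adjusted p = 0.0372).

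KLF10,KLF11 c99906-g1, related to factors that mammalian TGF-beta signalling induces, was not called between tryptamine and DMSO at any time. It was low after recovery in both. It had 45.6, 39.4 and 48.4 CPM after recovery from tryptamine, against 91.5, 149 and 85.2 CPM at 4 h of tryptamine. In DMSO it had 64.4, 49.7 and 46.7 CPM after recovery, against 74.4, 113 and 98.5 CPM at 4 h and 114, 177 and 97.0 CPM at 1 h. No recovery library overlapped the earlier libraries of its treatment. The difference of recovery from 4 h was -1.29 (SE 0.25, edgeR adjusted p = 0.00961) with tryptamine and -0.83 (SE 0.25, adjusted p = 0.0495) with DMSO, and that of recovery from 1 h in DMSO was -1.27 (SE 0.25, adjusted p = 0.0267). For tryptamine after recovery against 1 h it was -1.07 (adjusted p = 0.0775; 0.0321 with the replicate number as a block).

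These time differences were sensitive to single libraries. The tryptamine call was lost without library number 2 of tryptamine at 4 h (-1.01, adjusted p = 0.0629) or after recovery (-1.21, adjusted p = 0.0605). The DMSO difference of recovery from 1 h kept its call without number 3 of 1 h alone (adjusted p = 0.0334) and had adjusted p of 0.0793 to 0.156 without any other library. That of recovery from 4 h kept its call without number 1 of 4 h alone (adjusted p = 0.0314), with adjusted p of 0.0665 to 0.212 otherwise. Tryptamine against DMSO gave -0.47, 0.19 and -0.27 for KLF10,KLF11 at 1 h, 4 h and recovery, with edgeR adjusted p of 0.627 to 0.852.

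The other KLF genes were not called in any comparison. KLF9 c77535-g1 had 40.9, 47.2 and 40.1 CPM after recovery from tryptamine and 35.0, 37.6 and 32.3 CPM with DMSO. The groups did not overlap, and the difference was 0.29 (SE 0.14, edgeR adjusted p = 0.307). It was 0.18 at 1 h and 0.27 at 4 h, where the groups overlapped. KLF7 c97409-g2, a relative of a factor of developing neurons in vertebrates, had 276, 210.1 and 225 CPM after recovery from tryptamine and 403, 310.2 and 270.1 CPM with DMSO, a difference of -0.47 (SE 0.20, adjusted p = 0.230). Its DMSO libraries ran from 175 to 403 CPM over all times.

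MYCN and MAX bind DNA as a pair in vertebrates and drive genes of growth. MAX measured 98.2, 104 and 96.3 CPM with tryptamine at 4 h and 86.0, 79.3 and 84.5 CPM with DMSO. The groups were apart by a small margin, with a difference of 0.26 (SE 0.11, edgeR adjusted p = 0.327). In DMSO, MAX was at 83.3 ± 3.50 CPM at 4 h against 109 ± 5.49 CPM at 1 h, which just missed the threshold (-0.38, SE 0.11, adjusted p = 0.0505) and passed with the replicate number as a block (-0.38, adjusted p = 0.0280). MYCN had 93.9, 109.9 and 72.4 CPM after recovery from tryptamine, all above 61.0, 59.0 and 60.9 CPM with DMSO. Its difference was 0.61 (SE 0.24, edgeR adjusted p = 0.196) after recovery, 0.53 (adjusted p = 0.405) at 4 h and 0.28 (adjusted p = 0.863) at 1 h.

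Of the ATF and CREB relatives, none was called in any comparison. ATF2, which JNK and p38 phosphorylate in mammals, differed by 0.05, 0.17 and 0.07 at the 3 times (SE 0.12 each). CREB3L2 c104028-g2 and CREB3L3,CREB3,CREB3L4 c100817-g1 are related to factors held in the endoplasmic reticulum membrane until stress releases them. The first differed by -0.05, 0.05 and 0.10 at the 3 times, and CREBZF c97433-g1 by 0.05, -0.07 and -0.18. The other had 6.28, 16.6 and 11.4 CPM with tryptamine at 4 h against 8.81, 7.74 and 8.75 CPM with DMSO, where the lowest and the highest libraries were both tryptamine ones (difference 0.43, SE 0.24, edgeR adjusted p = 0.523). The 4 CREBBP genes, named for an acetyltransferase that CREB recruits, had median differences of 0.40 at 1 h, -0.10 at 4 h and -0.35 after recovery, and none was called. All 4 lay above 0 at 1 h, as did 52.8% of all tested genes, and some may be parts or near copies of each other. The groups of 1 of them, c99408-g3, did not overlap, as for 5.99% of all genes in this direction. It had 1.82 ± 0.389 CPM with tryptamine against 1.25 ± 0.218 CPM with DMSO, from mean counts of 25 and 21.3 a library (difference 0.52, SE 0.29, edgeR adjusted p = 0.807).

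Across roles at 4 h, 1 of 44 members was higher with tryptamine and 0 were lower, where 0.236% of all tested genes were higher and 1.27% lower (1.5% in either direction). The difference was above 0 in 10 of 11 factors, with a median of 0.26, and in all 5 KLFs, with a median of 0.27. Over all tested genes 50.6% were above 0 and the median was 0.00. Within numbers, every factor lay above DMSO in number 2, whose tryptamine library deviated most from its group mean. In number 3, KLF7, KLF10,KLF11, CREBZF and CREB3L2 lay below DMSO (0.809-fold, 0.864-fold, 0.770-fold and 0.914-fold). In number 1, CREBZF, CREB3L2 and CREB3L3,CREB3,CREB3L4 did (0.964-fold, 0.975-fold and 0.713-fold). Fewer DUSPs lay above DMSO in number 3 than in number 2. At an unadjusted p under 0.05 there were 4 factors and 2 DUSPs higher and 2 SPRYD3 genes lower, against 5.24% of all genes higher and 6.49% lower. Groups did not overlap for 4 members above and 2 below DMSO, among 6.19% and 7.34% of all genes.

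**Figure D2:**
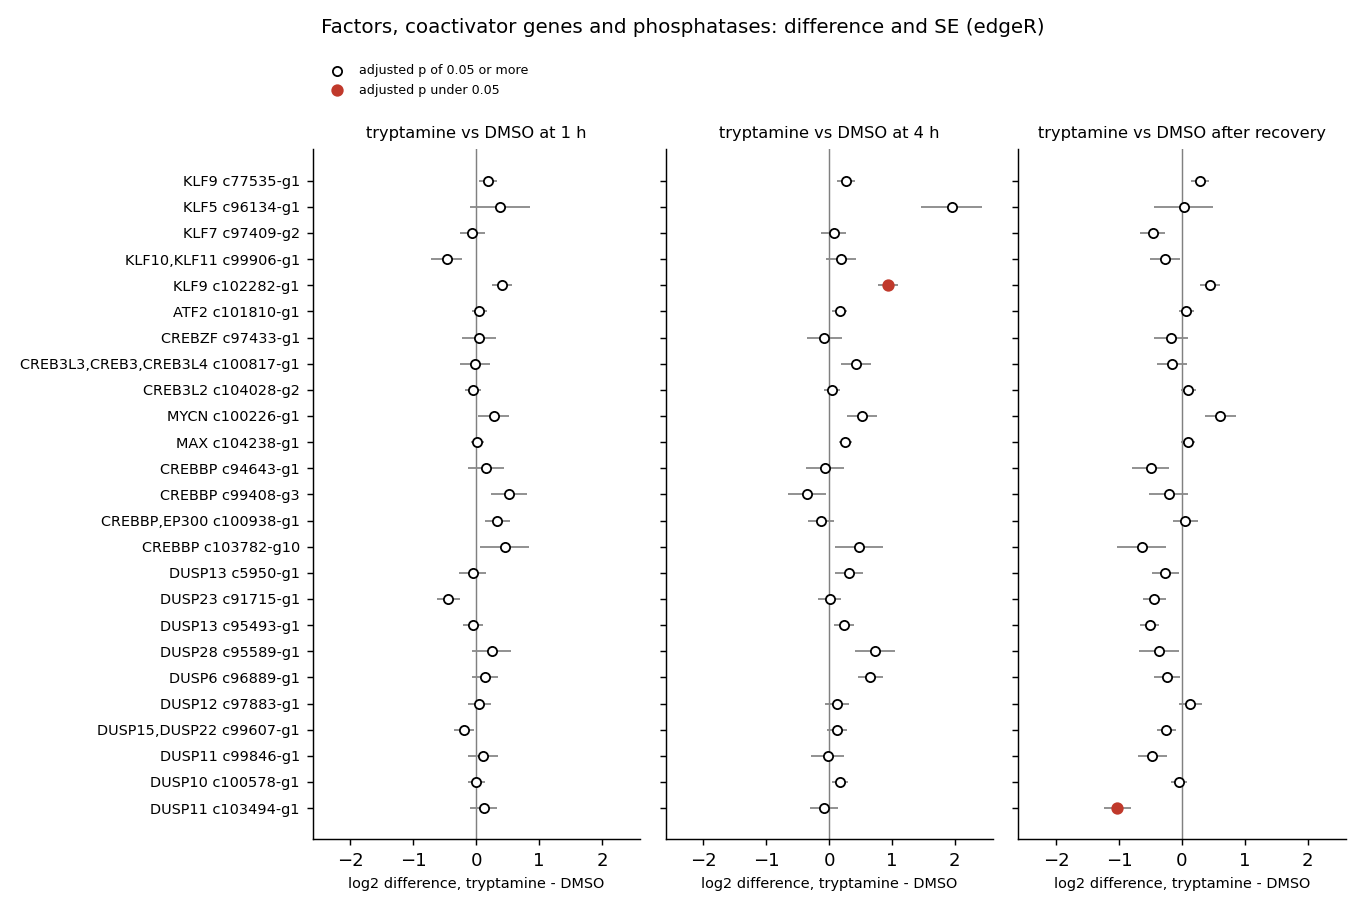
Log2 difference between tryptamine and DMSO, with its SE from edgeR, for the 11 factors, the 4 CREBBP genes and the 10 DUSPs at 1 h, 4 h and after recovery; filled points have an adjusted p under 0.05. At 4 h 10 of 11 factors and 8 of 10 DUSPs lie right of 0, with KLF9 c102282-g1 filled, and after recovery 9 of 10 DUSPs lie left of 0, with DUSP11 c103494-g1 filled.

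DUSPs remove phosphate from MAP kinases or, in the atypical members, from other substrates. DUSP6, an ERK phosphatase whose own gene ERK signalling induces in vertebrates, measured 358, 779 and 502 CPM with tryptamine at 4 h, against 317, 333 and 389 CPM with DMSO. Libraries number 2 and 3 of tryptamine stood above all DMSO libraries and number 1 lay among them. The difference was 0.66 (SE 0.21, 95% interval 0.23 to 1.09, edgeR adjusted p = 0.148), and 0.32 (adjusted p = 0.539) without tryptamine library number 2. At 1 h it was 0.14 and after recovery -0.23.

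With tryptamine, DUSP6 was lower after recovery than at 4 h, at 343, 309 and 302 CPM (difference -0.78, SE 0.21, edgeR adjusted p = 0.0353). All recovery libraries lay below all 4 h libraries. In DMSO the 2 times differed by 0.11 (adjusted p = 0.807), and the change of the tryptamine effect between them was -0.89 (SE 0.29, adjusted p = 0.266). DUSP10 c100578-g1, a phosphatase of JNK and p38 in mammals, had 95.8, 77.3 and 80.3 CPM after recovery from tryptamine and 111, 133 and 113 CPM at 4 h of it (-0.49, SE 0.13, adjusted p = 0.0375). DUSP13 c95493-g1 had 21.5, 19.5 and 18.0 CPM after recovery and 27.1, 37.9 and 25.9 CPM at 4 h (-0.62, SE 0.16, adjusted p = 0.0292). In DMSO, DUSP10 had 87.2 ± 2.44 CPM after recovery and 105 ± 15.7 CPM at 4 h. DUSP13 c95493-g1 had 28.1 ± 3.42 CPM after recovery in DMSO and 25.7 ± 1.68 CPM at 4 h. For both genes the tryptamine recovery libraries lay below every tryptamine 4 h library. Without tryptamine library number 2 of 4 h the 3 differences were -0.46, -0.42 and -0.45, with adjusted p of 0.180 to 0.249, and leaving out number 2 or number 3 of recovery also ended the 3 calls (adjusted p of 0.0905 to 0.158). The DUSP6 call was also lost without tryptamine number 3 of 4 h (0.0605) or number 1 of recovery (0.0576), and that of DUSP10 without number 3 of 4 h (0.0663).

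DUSP11 c103494-g1, named for a phosphatase that acts on the triphosphate end of RNA rather than on kinases, was the 1 member called after recovery. It measured 29.7, 15.7 and 24.5 CPM with tryptamine, against 52.5, 37.8 and 52.1 CPM with DMSO. Every tryptamine library was below every DMSO library. The difference was -1.03 (SE 0.22, 95% interval -1.49 to -0.57, edgeR adjusted p = 0.0324), a fold of 0.491. At 1 h and 4 h the gene differed by 0.12 and -0.08, with overlapping groups, and the change of the effect from 4 h to recovery was -0.95 (SE 0.31, adjusted p = 0.266).

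Neither group of DUSP11 c103494-g1 differed by the test from its own level at 4 h. With tryptamine it was at 23.3 ± 7.08 CPM after recovery and 28.1 ± 6.09 CPM at 4 h (-0.27, adjusted p = 0.527). With DMSO it was at 47.5 ± 8.41 CPM after recovery and 29.7 ± 3.43 CPM at 4 h, a difference of 0.68 (SE 0.22, edgeR adjusted p = 0.0684). The call was lost when 1 of 3 libraries was left out, number 2 of tryptamine (-0.81, adjusted p = 0.108), number 1 of DMSO (-0.95, adjusted p = 0.177) or number 3 of DMSO (-0.95, adjusted p = 0.142). The second gene of this name, DUSP11 c99846-g1, with 17 to 57 counts a library, differed by -0.47 (SE 0.24, adjusted p = 0.315).

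After recovery 0 of 44 members were higher and 1 was lower, where 1.86% of all tested genes were called, 1.36% higher and 0.497% lower. Of the 10 DUSPs, 9 were below 0, with a median of -0.32, while 52.6% of all tested genes were below 0, with a median of -0.03. Groups did not overlap for 6 members above and 6 below DMSO, among 13.4% and 10.6% of all genes, and 5 of the 6 below were DUSPs. The 5 were DUSP11 c103494-g1, DUSP13 c95493-g1 (-0.52, SE 0.16, adjusted p = 0.0876), DUSP23 c91715-g1 (-0.44), DUSP28 c95589-g1 (-0.37) and DUSP15,DUSP22 c99607-g1 (-0.25). DUSP13 c95493-g1 had 21.5, 19.5 and 18.0 CPM with tryptamine and 32.1, 25.9 and 26.4 CPM with DMSO, and it passed with DESeq2 (adjusted p = 0.0444), the stricter filter (0.0444) and the replicate number as a block (0.0494). Of the other DUSPs, DUSP13 c5950-g1 differed by -0.27 and DUSP12 c97883-g1 by 0.13, with overlapping groups. The 11 factors were divided, with 7 above 0 and a median of 0.07 (47.4% of all genes above 0).

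Of the marker list genes, 2 were called in the recovery comparison. Over all tested genes 0.497% were called lower, 47.4% lay above 0 and the median was -0.03. The flagellum relatives IFT20 c97882-g1 and IFT22 c49953-g1 were lower after recovery from tryptamine, at 9.13 ± 0.144 and 4.05 ± 0.411 CPM, against 16.0 ± 2.59 and 6.98 ± 0.279 CPM with DMSO. They were the 2 called of 46 tested flagellum genes (edgeR adjusted p = 0.0297 and 0.0348), while the median of the list was -0.06 and its summed level was 1036 to 1371 CPM with tryptamine and 1218 to 1433 CPM with DMSO. Of 12 archaeocyte genes 10 were above 0 (median 0.22) and 0 were called, with sums of 1338 to 1744 CPM and 1453 to 1643 CPM. Of 11 contractile genes 3 were above 0 (median -0.31) and 0 were called, with sums of 4395 to 5048 CPM and 4823 to 5272 CPM. Their part in the DUSP values was not tested. At 4 h, 0 genes of the 3 lists were called (1.5% of all tested genes), and the summed levels of each list overlapped between tryptamine and DMSO. At 1 h, 0 were called (0% of all tested genes). Above 0 at 1 h were 40 of 46 flagellum genes (median 0.21), 8 of 12 archaeocyte genes and 3 of 11 contractile genes. The share over all tested genes was 52.8%.

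**Figure D3:**
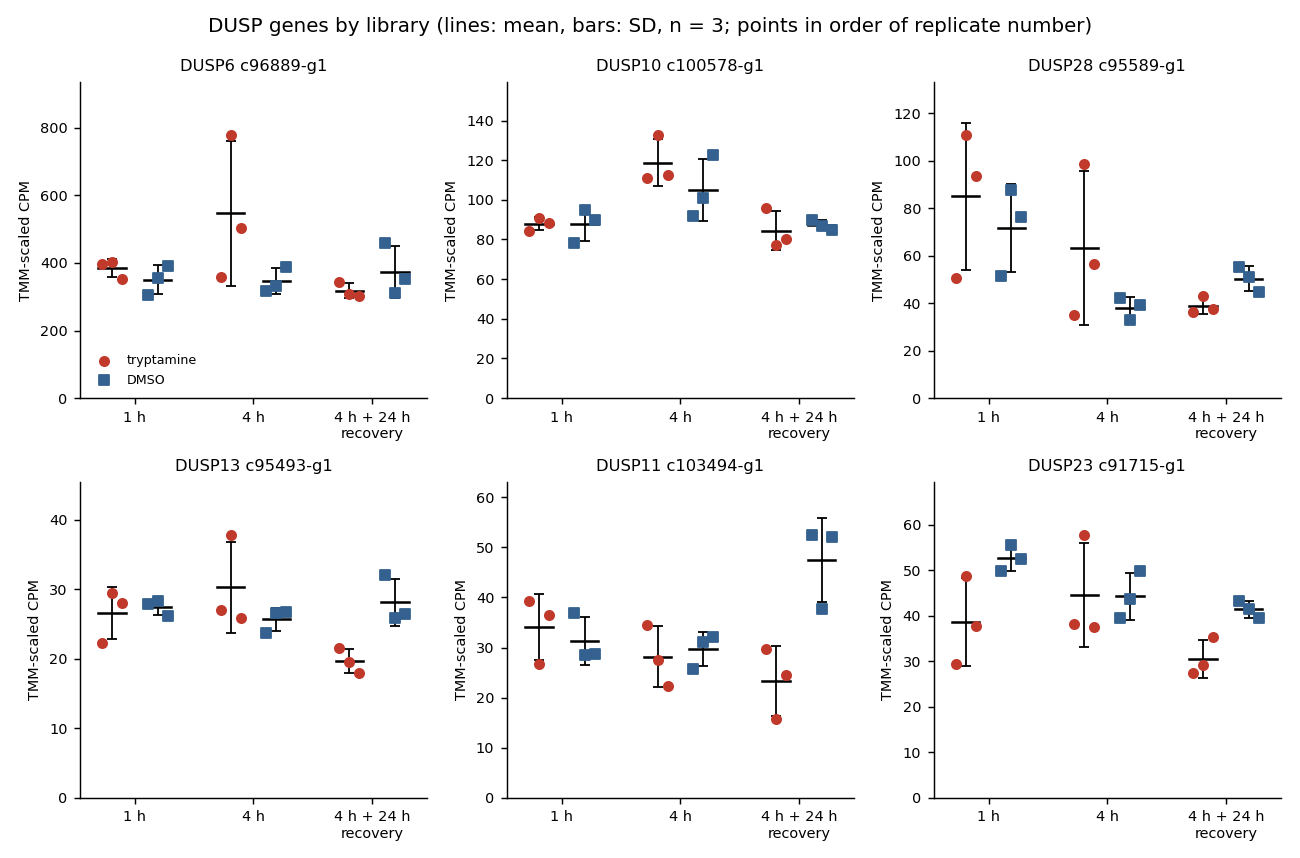
Levels of 6 DUSP genes in the 18 libraries, in TMM-scaled CPM on linear axes starting at 0, with tryptamine (circles) left of DMSO (squares) at each time; lines are means and bars SDs of 3 libraries. DUSP11 c103494-g1 separates the groups after recovery, at 15.7 to 29.7 CPM with tryptamine and 37.8 to 52.5 CPM with DMSO, and DUSP6 c96889-g1 reaches 779 CPM in library number 2 of tryptamine at 4 h.

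At 1 h no member was called with tryptamine, and neither was any of the 24125 genes, which is 0%. By edgeR 1553 genes had an unadjusted p under 0.05, 3.01% above 0 and 3.43% below, and among the members these were KLF9 c102282-g1 and SPRYD3 c104707-g3 above 0 and DUSP23 below it. DESeq2 called 16 genes and 0 members. Of the members 25 of 44 lay above 0, as did 52.8% of all genes, and groups did not overlap for 5 members above and 1 below DMSO, among 5.99% and 6.18% of all genes. DUSP23, a small atypical phosphatase, had 29.4, 48.8 and 37.8 CPM with tryptamine and 49.9, 55.6 and 52.4 CPM with DMSO, a difference of -0.45 (SE 0.18, adjusted p = 0.744). DUSP28, another atypical phosphatase, had 50.5, 111 and 93.6 CPM with tryptamine and 51.2, 87.5 and 76.3 CPM with DMSO, with the same order over the library numbers as KLF5. At 4 h it had 34.9, 98.5 and 56.3 CPM with tryptamine and 42.2, 32.7 and 39.0 CPM with DMSO (difference 0.73, SE 0.32, adjusted p = 0.368). By edgeR no member was called for a change of the effect between 1 h and 4 h (0% of all genes) or between 4 h and recovery (0.0953% of all genes, all of them higher). DESeq2 called 94 and 188 genes for these 2 changes and limma-voom 0 and 0, with 0 members by either tool. At an unadjusted p under 0.05 edgeR had 3 members (4.12% of all genes) and 6 members, all below 0 (4.8% of all genes below 0 and 6.28% above).

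Over time within DMSO, 1 member was lower at 4 h than at 1 h, where 3.86% of all genes were called (2.81% higher, 1.05% lower). After recovery against 4 h in DMSO, 1 member was higher and 3 were lower, where 6.86% were called (2.54% higher, 4.33% lower), and against 1 h 1 was lower, where 0.535% were called (0.261% higher, 0.274% lower). With tryptamine, 0 members were called at 4 h against 1 h (0.348% of all genes; 0.269% higher, 0.0788% lower), 5 were lower after recovery against 4 h (4.85%; 1.4% higher, 3.45% lower), and 0 were called after recovery against 1 h (0.29%; 0.0953% higher, 0.195% lower). For the counts of 0 by edgeR, 7 members at 4 h and 9 after recovery had an unadjusted p under 0.05 (12.5% and 12.3% of all genes), and DESeq2 called 2 members among 671 genes and 3 members among 503 genes. With the replicate number as a block, the counts for 4 h against 1 h were 3 in DMSO (among 1379 genes called), where KLF5 and MAX joined KLF9, and 1 with tryptamine (among 403), and the count for tryptamine after recovery against 1 h was 1 (among 229). DMSO at 4 h was the lowest of the 6 group means for 13 of the 44 members (29.5%) and for 9 of the 21 factors and DUSPs among them (42.9%), against 20.8% of all tested genes. Tryptamine after recovery was the lowest for 11 of the 44 (25%) and 7 of the 21 (33.3%), against 19.4% of all genes.

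**Figure D4:**
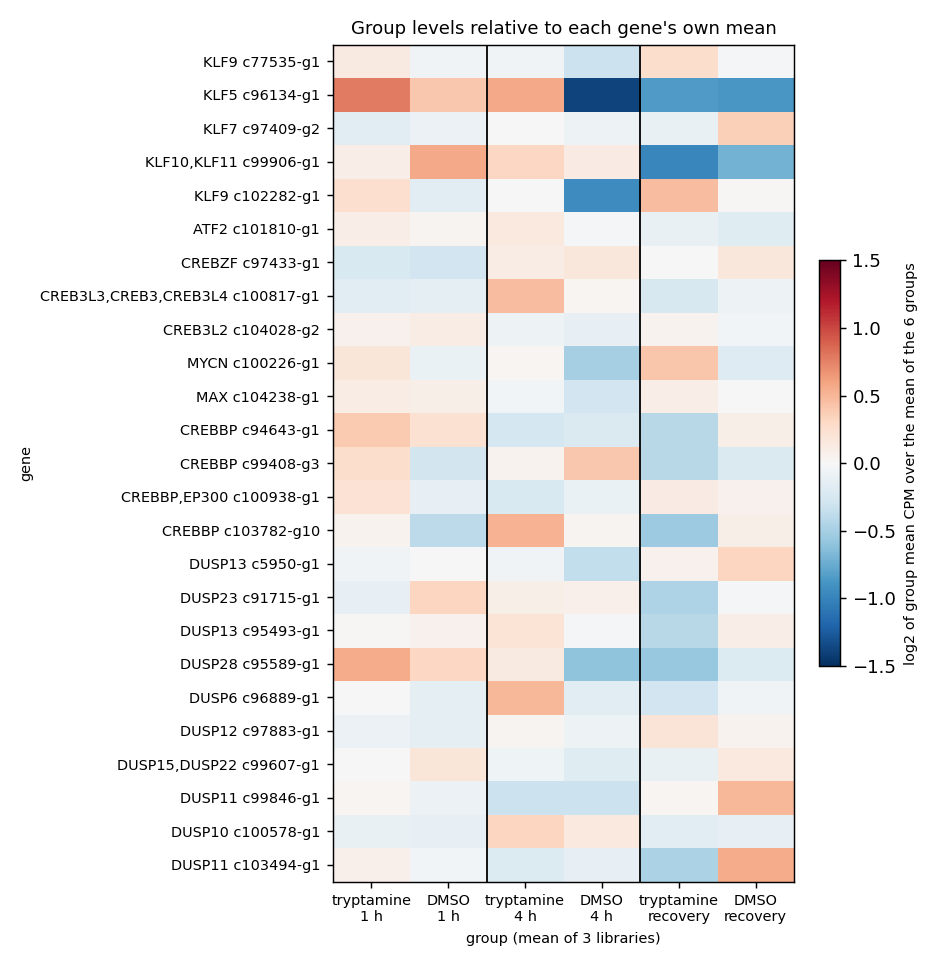
Mean CPM of each group relative to the mean of the 6 groups, on the log2 scale, for the 11 factors, 4 CREBBP genes and 10 DUSPs, with tryptamine left of DMSO at each time. KLF5 c96134-g1 and KLF9 c102282-g1 are bluest in the DMSO 4 h column, which is their lowest group, and KLF10,KLF11 c99906-g1 is blue in both recovery columns.

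Of the 20 genes that match by word alone, 19 were tested and none was called between tryptamine and DMSO at any time. MYCBP2 c34133-g1, with 2 to 10 counts a library, did not pass the filter. MAF1 c102040-g1, a relative of a repressor of RNA polymerase III, had the largest time difference among them with tryptamine, at 2.90 ± 0.464 CPM at 4 h and 1.18 ± 0.676 CPM at 1 h (1.29, adjusted p = 0.104; 0.0404 with the replicate number as a block). CEBPZ c103801-g2, whose vertebrate relative works in the nucleolus rather than as a C/EBP factor, came closest to a call after recovery, with 4.79, 5.04 and 6.12 CPM with tryptamine and 2.86, 3.40 and 2.24 CPM with DMSO. These groups were apart, with a difference of 0.92 (SE 0.26, edgeR adjusted p = 0.0664), and at 4 h it was 0.18. The recovery difference passed with DESeq2 (adjusted p = 0.0234) and with the replicate number as a block (adjusted p = 0.0407).

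TOE1 c91420-g1, an exonuclease relative that matures small nuclear RNA, had 13.0, 11.8 and 8.86 CPM after recovery from tryptamine and 7.62, 8.41 and 6.78 CPM with DMSO (difference 0.57, SE 0.21, adjusted p = 0.165). The groups were narrowly apart, and at 4 h the difference was 0.07. The aggregation factor gene MAFp3 c104736-g1, named for a proteoglycan by which sponge cells adhere, ran from 68.9 to 247 CPM over the 18 libraries, and at 4 h had 167, 68.9 and 149 CPM with tryptamine and 141, 125 and 182 CPM with DMSO (difference -0.22, SE 0.39).

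Among the SPRYD3 genes, c101910-g1 changed over time and not with tryptamine. It had 51.9, 33.2 and 44.7 CPM after recovery from tryptamine against 59.9, 82.6 and 66.4 CPM at 4 h, and in DMSO 46.2, 37.6 and 45.1 CPM against 67.1, 83.4 and 74.2 CPM. Each recovery library lay below each 4 h library of its treatment, by -0.69 (SE 0.16, edgeR adjusted p = 0.0245) with tryptamine and -0.80 (SE 0.16, adjusted p = 0.00592) with DMSO. SPRYD3-like c95541-g1 had 6.80, 3.63 and 4.86 CPM with tryptamine at 4 h, all below 8.18, 7.17 and 9.32 CPM with DMSO (difference -0.69, SE 0.28, adjusted p = 0.324). MYCBP2 c104108-g1, a very large ubiquitin ligase relative, had 1941, 2173 and 2136 CPM after recovery in DMSO and 3254, 2668 and 2484 CPM at 4 h (-0.43, SE 0.13, adjusted p = 0.0451), with no overlap. The tryptamine call of SPRYD3 c101910-g1 was lost without number 2 of 4 h (adjusted p = 0.130) or of recovery (0.125), and that of MYCBP2 without any library but number 3 of 4 h (0.0835 to 0.200). Several SPRYD3 and CREBBP genes may be parts or near copies of each other, and pairs mapping to several places were not counted, so their separate levels are uncertain.

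The kinases and partner factors that act on these regulators in vertebrates were taken as lists of relatives. None of the 16 tested genes of the ERK arm, 11 of the JNK and p38 arm, 5 of the SRF and ETS partners, 14 of the cyclic AMP and calcium list or 2 SP zinc fingers was called between tryptamine and DMSO at any time. Over all tested genes 0%, 1.5% and 1.86% were called at 1 h, 4 h and after recovery. Of the 16 ERK arm genes, 2 were above 0 at 1 h (median -0.18), 11 at 4 h (median 0.13) and 4 after recovery (median -0.16). Of the 11 JNK and p38 arm genes, 5 were above 0 at 1 h (median -0.07), 4 at 4 h (median -0.10) and 6 after recovery (median 0.05). Over all tested genes the shares above 0 were 52.8%, 50.6% and 47.4% at the 3 times. At an unadjusted p under 0.05, edgeR had 2 ERK arm genes, 1 JNK and p38 arm gene and 1 SP gene higher and 1 gene of the calcium list lower at 4 h. Over all tested genes 5.24% were higher and 6.49% lower at this cut-off. At 1 h both SP genes were higher and 2 genes of the calcium list lower, against 3.01% and 3.43% of all genes. The smallest p in the ERK arm at 4 h was that of SOS2 c104244-g4, an activator of RAS (193 ± 56.3 CPM with tryptamine, 142 ± 11.5 CPM with DMSO, log2 difference 0.44, edgeR adjusted p = 0.229). In the other lists it was that of MAP3K4 c42518-g1 (0.34, adjusted p = 0.381), ETS2 c103711-g1 (0.16, adjusted p = 0.899) and SP1 c92500-g1 (0.67, adjusted p = 0.389).

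The calcium list held NFATC3,NFATC2,NFATC4,NFATC1 c93335-g1, a relative of the factors that calcineurin sends to the nucleus. It had 1.16 ± 0.619 CPM with tryptamine at 4 h and 4.86 ± 2.11 CPM with DMSO, a difference of -2.08 (SE 0.54, edgeR adjusted p = 0.0675). At 1 h it had 1.17 ± 0.570 CPM with tryptamine and 5.27 ± 4.02 CPM with DMSO (-2.18, adjusted p = 0.651), and after recovery both groups were low, at 1.03 ± 0.0668 CPM with tryptamine and 0.830 ± 0.252 CPM with DMSO.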

How the data were processed

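PolyA RNA of whole sponges was measured in 18 libraries. The deposited values are raw counts of read pairs per gene of an assembled transcriptome; per the file headers, the authors used featureCounts 2.1.1, with no strand setting and with pairs of several mapping places left uncounted. Alignment was by STAR per the submitters' processing notes, whose version the sources used here do not give. Gene length, which sums isoforms, served for RPKM alone. No genome or coordinates were used. A floor of 3 counts was 0.134 to 0.283 CPM and covers counting error only.

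In R 4.3.3, low genes were removed by filterByExpr on the groups, and libraries were scaled by TMM. A single edgeR 4.0.16 quasi-likelihood fit with robust dispersions and a mean per group covered the 18 libraries. Tests of contrasts were two-sided; p-values were adjusted by Benjamini-Hochberg over the 24125 genes, with a threshold of 0.05. CPM divide counts by the scaled total over tested genes. The fit was tested on simulated data.

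The members and the lists were chosen with earlier results of these data known. Any member could be named. Values per library are given for KLF9 c102282-g1, members called between treatments or over time, the member of smallest p at 4 h in each family, and further members chosen after their values were seen. Genes of the pathway lists were named when called between tryptamine and DMSO, otherwise as the smallest p of a list at 4 h. Their calls over time are not described. Marker genes were named when called between treatments, apart from MSI1,MSI2 c85861-g1, which was not called between them.

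Same-numbered libraries were taken as paired where all 3 correlations of their deviations from group means exceeded 0.1, a property of the data and not of the labels. This held for tryptamine against DMSO at 1 h (0.332 to 0.402) and 4 h (0.115 to 0.191), for 4 h against 1 h in both treatments, and for tryptamine after recovery against 1 h, and not after recovery (0.0852 to 0.287). The main fit held no block, so its p-values do not use the pairing, which entered only as an alternative. No library was a copy of another: counts of the 18 pairs within groups gave a chi-square of 9.51 to 56.8 per degree of freedom. Alternatives were DESeq2 1.42.0, limma-voom (limma 3.58.1), median-of-ratios scaling, no filter, a minimum count of 50 in place of 10, non-robust dispersions, the replicate block, a fold threshold of 1.2, the compared groups alone and each library left out; leaving out both 4 h libraries of number 2 was chosen after seeing the data.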

Additional observations from a re-analysis of the deposited data

How the results depend on the processing

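Each count of members called is given with the number of all tested genes called under the same setting. Between tryptamine and DMSO at 4 h it was 1 (363 genes), and it became 2 with DESeq2 (606), the stricter filter (331) or non-robust dispersions (367), where KLF5 joined KLF9, and 0 without both 4 h libraries of number 2 (98); leaving out 1 library gave 1 to 3 (228 to 407). After recovery it was 1 (449), and became 3 with DESeq2 (1154), where DUSP13 c95493-g1 and CEBPZ c103801-g2 joined DUSP11 c103494-g1, 2 with the stricter filter (629) and 0 with the fold threshold of 1.2 (5); leaving out 1 library gave 0 to 1 (0 to 466). Leaving out 1 library gave 0 members at 1 h (0 to 5 genes), for the change of the effect from 1 h to 4 h (0 to 90) and for that from 4 h to recovery (0 to 110). For the mean of the 3 times it was 1 (1031), and became 4 with DESeq2 (1732) and 3 without the 4 h libraries of number 2 (1814), with 1 to 3 when 1 library was left out (365 to 1674). In DMSO at 4 h against 1 h it was 1 (931), and became 3 with DESeq2 (1210), limma-voom (949) or non-robust dispersions (978), 4 with the stricter filter (847) or the compared groups alone (837) and 0 without the 4 h libraries of number 2 (530); it was 1 without any single library (471 to 1190). For DMSO after recovery against 1 h it was 1 (129), and became 2 with DESeq2 (475), 0 with the fold threshold (49) and 0 to 1 with a library left out (6 to 93). For DMSO after recovery against 4 h it was 4 (1656), and became 2 with no filter (1453), the fold threshold (932) or the 4 h libraries of number 2 left out (816), 7 with the stricter filter (1713) or the compared groups alone (1856), and 2 to 3 with a library left out (701 to 1579). With tryptamine at 4 h against 1 h it was 0 (84), and became 2 with DESeq2 (671) and 0 to 2 with a library left out (1 to 846). With tryptamine after recovery against 1 h it was 0 (70), and became 3 with DESeq2 (503) and 0 to 1 with a library left out (1 to 567). With tryptamine after recovery against 4 h it was 5 (1169), and became 1 with the fold threshold (409), 0 with the compared groups alone (12) or without the 4 h libraries of number 2 (159), and 0 to 8 with a library left out (150 to 1801). The causes were not tested.

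With the replicate number as a block, more genes were called in each comparison, members or not. Members called became 3 after recovery (among 1329 genes), 6 for the mean of the 3 times (2228), 3 in DMSO at 4 h against 1 h (1379), 3 in DMSO after recovery against 1 h (540), 8 in DMSO after recovery against 4 h (2603), and with tryptamine 1 at 4 h against 1 h (403), 1 after recovery against 1 h (229) and 8 after recovery against 4 h (2047). The block did not change the count of members called between treatments at 1 h (0 among 7 genes) or 4 h (1 among 563). Of 693 values of single genes under the alternatives, 608 kept their direction and side of the threshold, 63 lost a call, 16 gained one and 6 changed sign, none of them called. Those 6 each came from leaving out 1 library: over single libraries left out, CEBPZ c103801-g2 at 4 h ranged from -0.0208 to 0.45, TOE1 c91420-g1 at 4 h from -0.18 to 0.27, MAFp3 c104736-g1 at 4 h from -0.46 to 0.0829, KLF5 c96134-g1 at 1 h from -0.0777 to 0.76, and KLF5 c96134-g1 after recovery from -0.0392 to 0.10. Depth limited the rarest members, such as MAF1 c102040-g1 with 6 to 51 counts a library.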

Other observations

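A comparison of tryptamine with DMSO as the mean of the 3 times was added after seeing the data. By edgeR it called 1 of 44 members, KLF9 c102282-g1, where 4.27% of all tested genes were called. Its mean difference was 0.60 (SE 0.09, 95% interval 0.41 to 0.79, edgeR adjusted p = 0.00202), and all 9 tryptamine libraries were above the DMSO libraries of their time. It stayed below the threshold in each of 27 alternatives, with adjusted p of at most 0.0423. MYCN c100226-g1 gave 0.47 (SE 0.14, adjusted p = 0.0619), CEBPZ c103801-g2 0.51 (SE 0.15, adjusted p = 0.0571) and KLF9 c77535-g1 0.25 (SE 0.08, adjusted p = 0.0887). With the replicate number as a block these 3 genes passed (adjusted p = 0.0137, 0.0392 and 0.0429), as did DUSP23 c91715-g1 (-0.30, adjusted p = 0.0454) and DUSP11 c103494-g1 (-0.34, adjusted p = 0.0455), which made 6 members among 2228 genes called. Same-numbered libraries met the rule for pairing at 1 h and 4 h and not after recovery. The NFATC3,NFATC2,NFATC4,NFATC1 gene c93335-g1 of the calcium list gave -1.32 (SE 0.33, adjusted p = 0.0331), and MAP3K4 c42518-g1 of the JNK and p38 arm gave 0.35 (SE 0.09, adjusted p = 0.0317). In the same comparison 3 of 12 archaeocyte genes were higher, as were 1.97% of all tested genes. They were TDRD5 c86866-g1 (0.73), PIWIL2 c101760-g2 (0.60) and PIWIL1,PIWIL4,PIWIL3 c104940-g2 (0.48). The group means of the first 2 were only 1.59 to 4.62 CPM. MSI1,MSI2 c85861-g1 of this list had lower means with tryptamine, 1295, 970 and 902 CPM at 1 h, 4 h and recovery. With DMSO it had 1341, 1124 and 1086 CPM. The part of archaeocyte genes in these values was not tested.

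The summed level of the 5 KLF genes was 778 to 1301 CPM with tryptamine at 4 h and 517 to 617 CPM with DMSO. After recovery it was 667 to 770 CPM with tryptamine and 657 to 840 CPM with DMSO, and at 1 h 789 to 1270 CPM with tryptamine and 715 to 1094 CPM with DMSO. Library number 2 was the highest of its group for KLF5, KLF10,KLF11 and DUSP28 in tryptamine and DMSO at 1 h and in tryptamine at 4 h.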
